A study of Mus musculus with 2 samples.

Results

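Sphingosine 1-phosphate (S1P) genes were compared between a pair of sorted mouse bone marrow populations. They were the 5 receptor genes S1pr1 to S1pr5, the sphingosine kinase genes Sphk1 and Sphk2, the lyase gene Sgpl1 and the transporter gene Spns2. A gene was included if a probe set of the array named that gene and no other in the platform annotation, and all 9 of these genes were found among 19935 measured genes, each with 1 probe set. The cells came from marrow of 6-week-old ddY mice, with no genotype or treatment given that distinguishes the groups. Mononuclear cells were purified on a gradient and sorted, by antibodies to 2 surface receptors, into RANKhigh c-Fmslow cells and RANKlow c-Fmshigh cells. RANK receives the osteoclast-inducing ligand RANKL, and c-Fms receives the monocyte growth factor M-CSF. Each population was measured on 1 array of an unstated number of mice. Every value below is therefore a single measurement without replicate error, no test or p-value was computed, and no difference has a replicate check.

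S1P is a lipid signal made inside cells by phosphorylation of sphingosine. It is exported, is abundant in blood and lymph and scarce in the tissue space, and cells that carry S1P receptors read this gradient when they leave or stay in a tissue. In mouse bone, S1pr1 is known to draw osteoclast precursors towards blood and S1pr2 to oppose that movement, so the genes bear on the study's question of how precursors circulate and settle in bone.

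Of the 9 genes, S1pr1 was the one that was at least 2-fold higher in RANKhigh c-Fmslow cells, and Sgpl1, the enzyme that destroys S1P, was the one that was at least 2-fold lower there. The other 4 receptor genes and Spns2 each had a somewhat lower value in RANKhigh c-Fmslow cells, and both kinase genes a higher one, by less than 2-fold. The differences of S1pr2 (log2 -0.20), Spns2 (-0.24) and Sphk2 (0.19) were too small to give a clear direction. A level of 93.6, the median of all deposited values, was reached on at least 1 array by 11089 genes. Of these, 4.34% were at least 2-fold higher in RANKhigh c-Fmslow cells and 4.26% were at least 2-fold lower, together 8.59%. All 9 S1P genes passed that level, and 2 of them (22.2%) differed by at least 2-fold. Their median log2 difference was -0.24, with 3 above 0 and 6 below, beside a median of 0.01 over all genes. Log2 differences are RANKhigh c-Fmslow minus RANKlow c-Fmshigh throughout. The shares of 4.34% and 4.26% over all genes stand beside every 2-fold count of a gene list below. Those counts, like the shares, take only genes that passed the level. Medians and counts above or below 0 take all measured genes of a list. Intensities of different probe sets cannot be ranked against each other, so each gene, and each sum over a list, is compared only with itself on the other array.

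**Figure D1:**
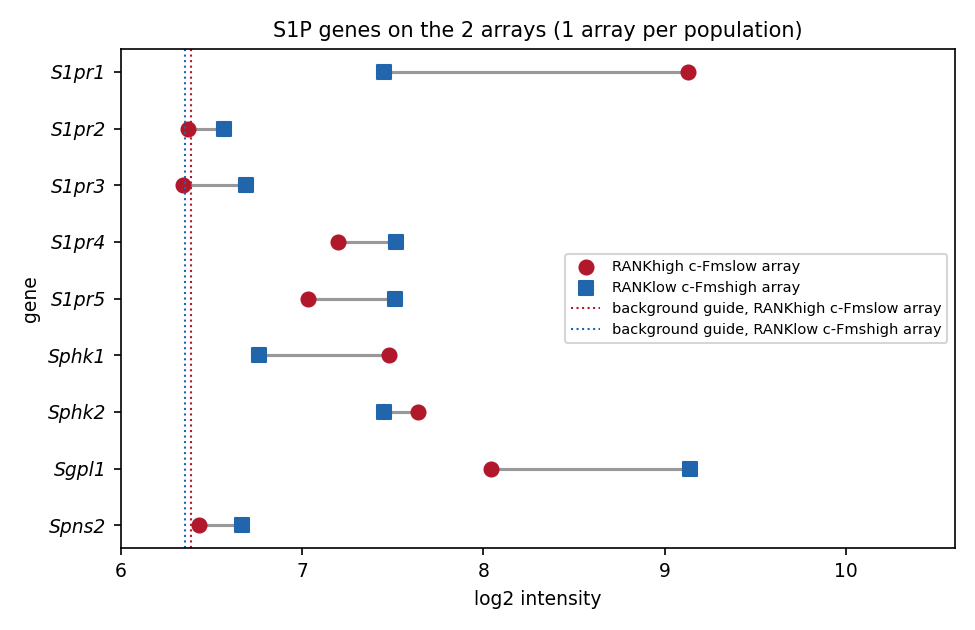
Log2 intensity of each S1P gene (x axis) on the RANKhigh c-Fmslow array (red circles) and the RANKlow c-Fmshigh array (blue squares), 1 value per array, with dotted lines at the 95th percentile of chemoreceptor genes on each array. The red circle lies far to the right of the blue square for S1pr1 (9.13 and 7.45) and to its left for Sgpl1 (8.04 and 9.14), while S1pr2, S1pr3 and Spns2 lie close to the dotted lines.

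Both populations were checked against their sort markers and a background guide. Csf1r, the gene of c-Fms, gave an intensity of 164 in RANKhigh c-Fmslow cells and 821 in RANKlow c-Fmshigh cells, as its sort label has it. Tnfrsf11a, the gene of RANK, stood at 104 in RANKhigh c-Fmslow cells and 119 in RANKlow c-Fmshigh cells, a log2 difference of -0.20. Among genes with 2 probe sets, the median gap between the 2 differences was 0.19. That gap is between probe sets on the same 2 arrays and does not measure array error. The Tnfrsf11a difference was about that size, and both values lay not far above the background guide given next. These values showed no clear difference in either direction, and not the higher level that its label names. The names of the populations therefore refer to the surface sort. The guide to background was the 95th percentile of 1189 olfactory and vomeronasal receptor genes, 83.8 on the RANKhigh c-Fmslow array and 81.8 on the RANKlow c-Fmshigh array. Where the lower value of a gene lay under it, the fold is given as a bound, which takes the guide as the lower value. Such a bound allows for background only and not for the unknown error of the arrays.

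To show the regulatory sequence of the enzymes at opposite ends of S1P turnover, which differed in opposite directions, the 250 bases before the annotated start are printed for the lyase gene and for 1 of the kinase genes. They are RefSeq sequences of the GRCm38.p6 build, written 5′ to 3′ on the strand of the gene. Sgpl1 is from chr10:61147685-61147934 on the minus strand. Sphk1 has 5 start sites in the table, and the one at the lowest coordinate is shown, from chr11:116530850-116531099 on the plus strand. Capitals mark GGGCGG (a GC box, bound by Sp and KLF factors), CACCC (a core letter string of KLF sites) or GAGGAA (a string found in sites of the ETS factor PU.1), each searched on both strands.
Sgpl1: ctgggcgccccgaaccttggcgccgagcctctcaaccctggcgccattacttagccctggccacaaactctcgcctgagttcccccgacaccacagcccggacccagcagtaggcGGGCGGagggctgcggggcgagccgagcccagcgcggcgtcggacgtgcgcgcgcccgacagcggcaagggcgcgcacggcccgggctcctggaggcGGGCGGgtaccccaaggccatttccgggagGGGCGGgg
Sphk1: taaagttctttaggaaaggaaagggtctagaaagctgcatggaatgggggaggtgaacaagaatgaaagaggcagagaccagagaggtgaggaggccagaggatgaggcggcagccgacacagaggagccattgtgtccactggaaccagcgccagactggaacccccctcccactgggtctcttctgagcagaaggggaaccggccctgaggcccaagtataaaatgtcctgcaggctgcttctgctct
The Sgpl1 window held GGGCGG 3 times and neither of the other strings. The Sphk1 window shown held none of the 3 strings, which says only that these letters are not in it, and the other 4 Sphk1 windows held CACCC 3 or 4 times each. Among 32851 windows of the same length, GGGCGG was present in 32.7%, CACCC in 52.0% and GAGGAA in 23.3%. Windows were matched for 8 of the 9 genes, all but S1pr1. GGGCGG was also present for S1pr3, S1pr5 and both Sphk2 starts, CACCC for S1pr2, S1pr3, S1pr4, S1pr5 and both Sphk2 starts, and GAGGAA for S1pr3 and Spns2. The arrays do not measure binding or the start site used, so these matches are a description of the sequence only.

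S1pr1 encodes the Gi-coupled receptor that lymphocytes use to leave lymphoid organs. Its probe set (10501586, NCBI Gene 13609, chromosome 3) gave an intensity of 562 in RANKhigh c-Fmslow cells, against 175 in RANKlow c-Fmshigh cells, a log2 difference of 1.68. Both values were above the background guide. Of the 11089 genes that passed the level, 148 had a larger difference towards RANKhigh c-Fmslow cells, which placed S1pr1 at percentile 98.7.

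The other receptor genes did not share the direction of S1pr1. S1pr2 encodes the receptor that signals through G12/13 and restrains migration. It gave 82.8 in RANKhigh c-Fmslow cells, below the background guide, and 95.2 in RANKlow c-Fmshigh cells, a bound of 1.14-fold (measured log2 difference -0.20). As for Tnfrsf11a, these values showed no clear difference in either direction. S1pr3, a receptor of vascular and many other cells, gave 81.2 in RANKhigh c-Fmslow cells, also below the guide, and 103 in RANKlow c-Fmshigh cells, at least 1.23-fold lower in RANKhigh c-Fmslow cells (-0.35). Both genes were near background, and detection in RANKhigh c-Fmslow cells cannot be stated for either.

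S1pr4 and S1pr5 were above the guide in both populations. S1pr4, the receptor most restricted to blood cells, gave 147 in RANKhigh c-Fmslow cells and 183 in RANKlow c-Fmshigh cells, a log2 difference of -0.31. S1pr5, known in mice for the exit of natural killer cells from marrow, gave 131 in RANKhigh c-Fmslow cells and 182 in RANKlow c-Fmshigh cells, a log2 difference of -0.48. The S1pr1 difference exceeded that of S1pr4 by 1.99 and that of S1pr5 by 2.16 on the log2 scale. Thus 1 of the 5 receptor genes had a log2 difference above 0 and 4 had one below 0, with a receptor median of -0.31. Each of the 4 lower differences was smaller in size than 0.67. That is the 90th percentile of the gap between the differences of 2 probe sets of the same gene.

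The enzymes of S1P itself came next. Sphk1, the mainly cytosolic kinase, gave 178 in RANKhigh c-Fmslow cells and 108 in RANKlow c-Fmshigh cells, 1.64-fold higher (log2 difference 0.72). Sphk2, the kinase also found in the nucleus and mitochondria, gave 199 in RANKhigh c-Fmslow cells and 175 in RANKlow c-Fmshigh cells (0.19). That difference was about the size of the median gap between 2 probe sets of the same gene. Sgpl1, the lyase of the endoplasmic reticulum that cleaves S1P irreversibly, gave 264 in RANKhigh c-Fmslow cells and 564 in RANKlow c-Fmshigh cells, 2.14-fold lower in RANKhigh c-Fmslow cells (-1.10). Of the 11089 genes, 379 had a lower difference, which placed Sgpl1 at percentile 3.42. The Sphk1 and Sgpl1 differences were 1.82 apart on the log2 scale, and those of Sphk2 and Sgpl1 1.29 apart.

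Spns2, the exporter through which endothelium supplies S1P to lymph, gave 86.4 in RANKhigh c-Fmslow cells and 102 in RANKlow c-Fmshigh cells (log2 difference -0.24). Both values lay just above the background guide. Of 7 endothelial markers, 5 were below the guide on both arrays, among them Cdh5, Kdr and Tek. Pecam1 was above it on both, at 598 in RANKhigh c-Fmslow cells and 412 in RANKlow c-Fmshigh cells. Eng was above it only in RANKhigh c-Fmslow cells (93.9, against 78.8 in RANKlow c-Fmshigh cells). The part of endothelial cells in the Spns2 values was not tested.

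Some of these genes overlap others in the reference annotation, and whether a probe set reads both partners was not tested. Sphk2 overlaps Dbp, which gave 148 in RANKhigh c-Fmslow cells and 130 in RANKlow c-Fmshigh cells, a log2 difference of 0.18 beside 0.19 for Sphk2. Spns2 overlaps Mybbp1a, which gave 245 and 222 in the same order (0.14), opposite in sign to Spns2. Sphk2 also overlaps Rpl18, and S1pr3 and Spns2 each overlap a long noncoding RNA gene. None of these had a value among the measured genes.

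**Figure D2:**
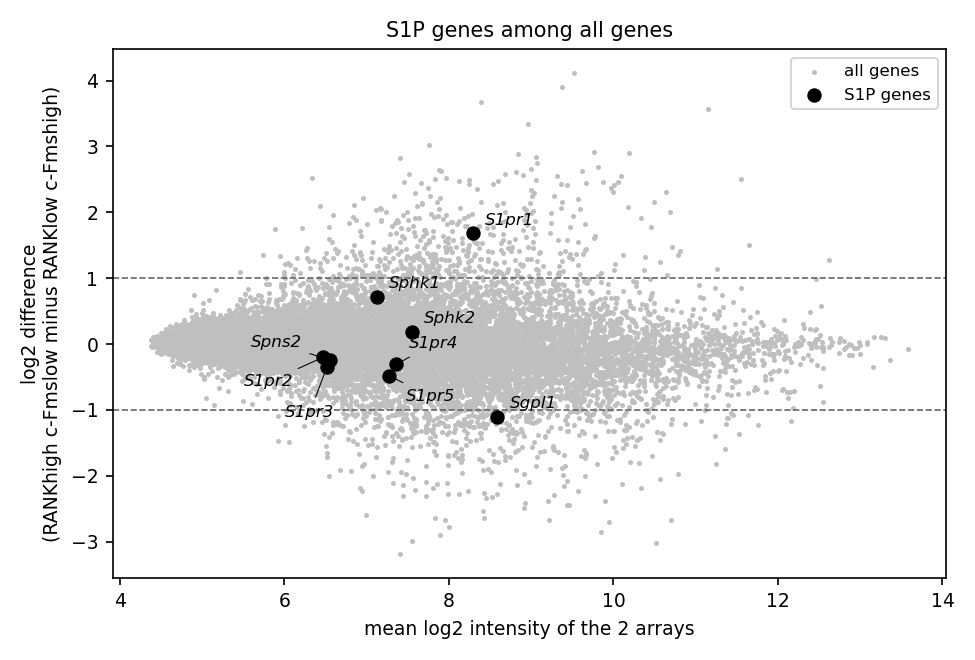
Log2 difference between the arrays (y axis, RANKhigh c-Fmslow minus RANKlow c-Fmshigh) against the mean log2 intensity of both (x axis) for 19935 genes (grey) and the 9 S1P genes (black), with dashed lines at 2-fold. S1pr1 at 1.68 and Sgpl1 at -1.10 lie outside the dashed lines, and the other 7 genes lie between them.

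Among 7 further S1P-handling genes, the phosphatases, another exporter and a carrier, 2 passed 2-fold upwards in RANKhigh c-Fmslow cells and 0 downwards, and the list's median log2 difference was 0.12. Plpp1, a lipid phosphate phosphatase of the cell surface that acts on S1P and lysophosphatidic acid, gave 402 in RANKhigh c-Fmslow cells and 94.4 in RANKlow c-Fmshigh cells, 4.26-fold higher. Mfsd2b, the S1P exporter of red cells and platelets, gave 275 and 123 in the same order, 2.24-fold higher. Plpp3, a related phosphatase, gave 101 in RANKhigh c-Fmslow cells and 58.1 in RANKlow c-Fmshigh cells, the second below the guide, and was at least 1.23-fold higher. Apom, the S1P carrier of lipoproteins, and Plpp2 were below the guide on both arrays. The S1P phosphatase genes Sgpp1 and Sgpp2 had log2 differences of 0.08 and 0.06.

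Genes that make and break down ceramide, from which sphingosine is released, were mostly lower in RANKhigh c-Fmslow cells. Of 16 measured genes 12 were below 0, 4 of them by 2-fold or more, and 0 were higher in RANKhigh c-Fmslow cells by that much; the median was -0.51. Asah1, the acid ceramidase of lysosomes that frees sphingosine, gave 186 in RANKhigh c-Fmslow cells and 716 in RANKlow c-Fmshigh cells, 3.85-fold lower. Cers6, a ceramide synthase, gave 454 and 1451 in the same order, 3.20-fold lower. Acer3, an alkaline ceramidase, gave 129 and 320 (2.49-fold lower), and Sptlc2, a subunit of the first enzyme of the pathway, 795 and 1619 (2.04-fold lower). Sptlc1 (-0.77), Kdsr (-0.72) and Degs1 (-0.78), which act with Sptlc2 or after it and were chosen after their values were seen, were lower by less than 2-fold. The remaining genes above the guide on both arrays were Cers5 (-0.69), Cers2 (-0.34), Asah2 (-0.04) and Cers4 (0.10). Another 5 of the 16 genes were below the guide on both arrays. Among these, Cers3 and Degs2 are counted below 0, and Sptlc3, Acer1 and Acer2 above it.

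Among 9 measured genes of sphingomyelin and other fates of ceramide, 1 was lower in RANKhigh c-Fmslow cells by 2-fold or more and 0 were higher by as much, around a median of -0.02. That gene was Galc, a lysosomal galactosidase, at 81.1 in RANKhigh c-Fmslow cells, below the guide, and 239 in RANKlow c-Fmshigh cells, at least 2.86-fold lower. Sgms2, a sphingomyelin synthase, had a log2 difference of -0.90, the glucosylceramide synthase gene Ugcg 0.55 and the ceramide kinase gene Cerk 0.43.

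**Figure D3:**
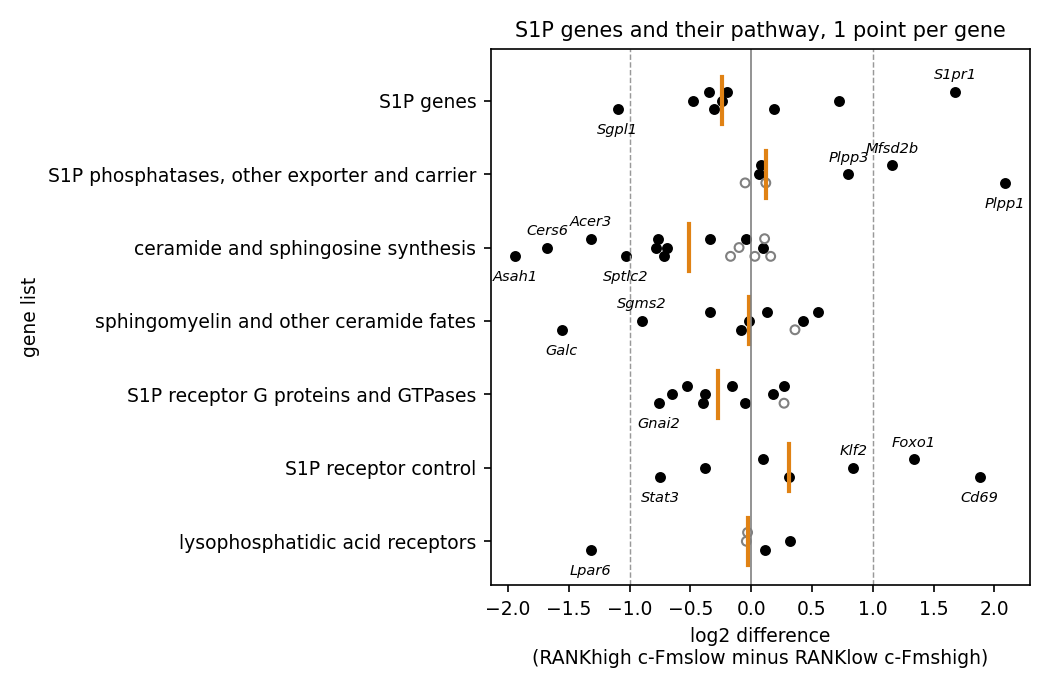
Log2 difference (x axis, RANKhigh c-Fmslow minus RANKlow c-Fmshigh) of each measured gene in the S1P genes and 6 related lists (y axis), with open circles for genes below the background guide on both arrays, orange bars for list medians and dashed lines at 2-fold. The ceramide and sphingosine synthesis list extends to the left, to Asah1 at -1.94, and the S1P phosphatase and exporter list to the right, to Plpp1 at 2.09.

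Genes that control S1P receptors varied in both directions. Of 7 measured genes 2 were higher in RANKhigh c-Fmslow cells by 2-fold or more and 0 were lower by as much, around a median of 0.31. Cd69, a lymphocyte activation antigen whose protein binds S1pr1 and removes it from the cell surface, gave 924 in RANKhigh c-Fmslow cells and 252 in RANKlow c-Fmshigh cells, 3.67-fold higher. Foxo1, a transcription factor upstream of Klf2 in lymphocytes, gave 473 and 187 in the same order, 2.53-fold higher. Klf2, a transcription factor that drives S1pr1 in T cells, gave 318 and 177, a log2 difference of 0.84. Stat3 had a log2 difference of -0.75.

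The G proteins and GTPases through which the receptors act each differed by less than 2-fold between the populations. Of 10 genes 7 were below 0, with a median of -0.27. Gnai2, the main Gi subunit of leukocytes, gave 2056 in RANKhigh c-Fmslow cells and 3483 in RANKlow c-Fmshigh cells (-0.76). Rhoa had a log2 difference of -0.65, Gnai3 of -0.53 and Gnaq of -0.40. Gnai1 was below the guide on both arrays. Receptors for lysophosphatidic acid, some of which are close relatives of the S1P receptors, were measured for 5 genes, of which 1 was lower in RANKhigh c-Fmslow cells by 2-fold or more. That was Lpar6, which belongs to a more distant receptor group and was 2.50-fold lower in RANKhigh c-Fmslow cells (443 against 1108 in RANKlow c-Fmshigh cells). Lpar1, whose value in RANKlow c-Fmshigh cells lay below the guide, was at least 1.24-fold higher in RANKhigh c-Fmslow cells. Lpar2 had a log2 difference of 0.11, and Lpar3 was below the guide on both arrays.

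Markers of several cell types also differed between the populations. In bulk arrays a difference in the number of cells of a type and a difference in RNA per cell cannot be told apart. Beside the higher S1pr1, all 10 measured early B cell markers and all 7 mature B cell markers were higher in RANKhigh c-Fmslow cells, with medians of 1.81 and 1.94. The summed intensity of the early B list was 12879 in RANKhigh c-Fmslow cells and 3594 in RANKlow c-Fmshigh cells, and that of the mature B list 7134 and 2291 in the same order. Pax5, the factor of B-lineage commitment, had a log2 difference of 2.56. All 9 T cell markers were also higher, with a median of 0.73 and sums of 2937 in RANKhigh c-Fmslow cells and 1018 in RANKlow c-Fmshigh cells. They were led by Cd3d (2.62), while Cd4 was below the guide on both arrays. The part of these cell types in the S1pr1 result was not tested.

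S1pr5 had a sign opposite to that of most natural killer cell markers. Of those 8 markers 7 were above 0, with a median of 0.81 and sums of 1954 in RANKhigh c-Fmslow cells and 903 in RANKlow c-Fmshigh cells. Gzma (1.53), Nkg7 (1.43) and Klrd1 (1.36) led the list. The defining markers Ncr1, Klrb1c, Eomes and Klrk1 were below the guide on both arrays. The count above 0 and the median therefore rest in part on background values. The part of natural killer cells in the S1pr5 values was not tested.

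Beside Sgpl1, Asah1 and Cers6, all of 8 monocyte markers were lower in RANKhigh c-Fmslow cells, 6 of them at least 2-fold, with a median of -2.08. That list holds Csf1r, the gene of a sort marker. Their summed intensity was 3549 in RANKhigh c-Fmslow cells and 17028 in RANKlow c-Fmshigh cells, and F13a1 had the lowest difference (-3.01). The 9 macrophage markers were divided, with 4 above 0 and 5 below and a median of -0.06, from Msr1 (-2.42) and Adgre1 (-1.70) to C1qc (1.58). The part of monocytes in the Sgpl1, Asah1 and Cers6 values was not tested.

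Beside Mfsd2b, each of 8 erythroid markers exceeded 2-fold in RANKhigh c-Fmslow cells, with a median of 2.18 and sums of 9057 in RANKhigh c-Fmslow cells and 2049 in RANKlow c-Fmshigh cells. All 5 megakaryocyte and platelet markers were above 0, with a median of 0.69 and sums of 2102 and 1041 in the same order. Neutrophil markers had a median of 1.98 (11 of 12 above 0), eosinophil markers of 1.87 (7 of 7) and basophil and mast cell markers of 1.56 (7 of 7). Of 10 osteoclast markers, 5 were above 0 and 5 below, with a median of 0.07, and their summed intensity was 4602 in RANKhigh c-Fmslow cells and 1653 in RANKlow c-Fmshigh cells. Car2 alone gave 3300 and 824 of those sums in the same order. In that list 3 genes were higher in RANKhigh c-Fmslow cells by 2-fold or more and 0 were lower by as much. They were Car2 (2.00), Acp5 (1.53) and Mmp9, whose value of 277 was at least 3.38-fold higher than in RANKlow c-Fmshigh cells (75.2, below the guide). Of the rest of that list, Itgb3 passed the level and was lower in RANKhigh c-Fmslow cells, at 131 against 209 in RANKlow c-Fmshigh cells (-0.67). Ocstamp (-0.03) did not reach the level. Ctsk, Calcr, Dcstamp, Atp6v0d2 and Oscar were below the guide on both arrays. The parts of these cells in the S1P gene values were not tested.

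**Figure D4:**
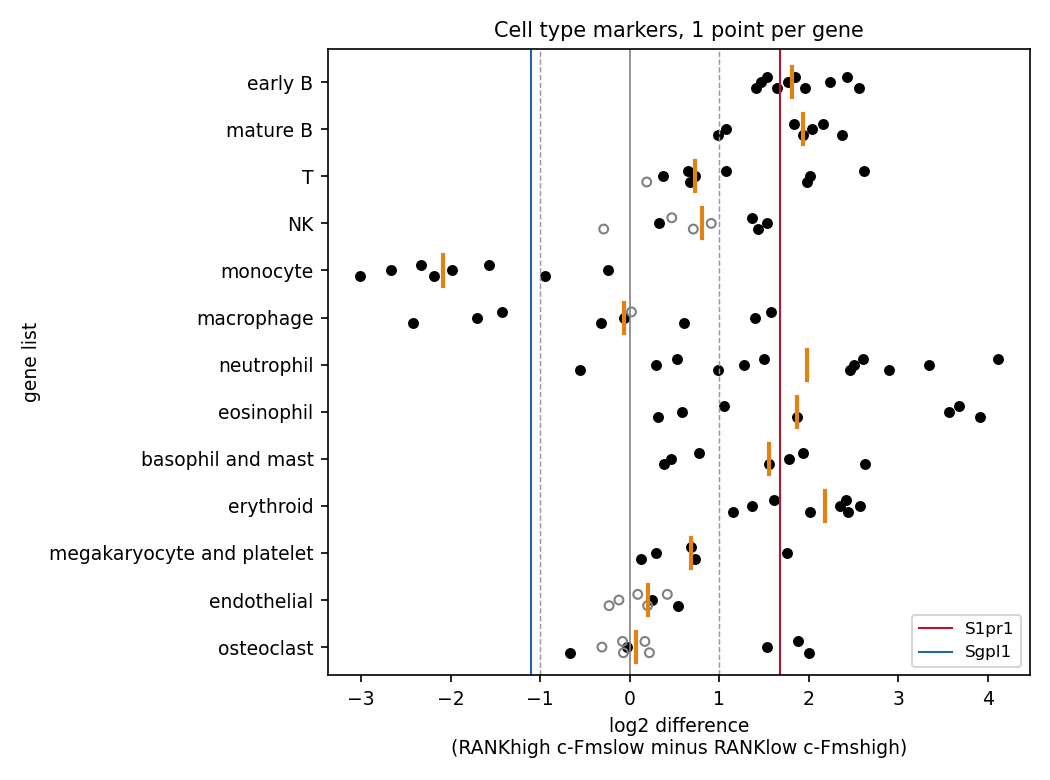
Log2 difference (x axis, RANKhigh c-Fmslow minus RANKlow c-Fmshigh) of each measured marker in 13 cell type lists (y axis), with open circles for genes below the background guide on both arrays, orange bars for list medians and dashed lines at 2-fold. The vertical line of S1pr1 (1.68) lies among the B cell, granulocyte and erythroid markers, and that of Sgpl1 (-1.10) between most monocyte markers and 0.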

How the data were processed

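Per the labels' protocols, RNA of each sorted population was amplified and its biotin-tagged cDNA hybridised to 1 array. The deposited values are linear intensities, 1 for each of 28815 probe sets. The submitters' processing notes name GCOS 1.4 and RMA. What each did, how arrays were scaled and which genome build applied are not given in these sources. Intensities ran from 19.9 to 13198 (median 94.5) on the RANKhigh c-Fmslow array and from 20.3 to 13453 (median 92.6) on the RANKlow c-Fmshigh array. For arrays, their number limits the precision.

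Values were put on the log2 scale with no pseudocount, using Python 3.11.15, numpy 2.4.6 and pandas 2.3.3. In the 2016 platform annotation 21780 probe sets named 1 gene, 1605 named several and 5430 were not listed. Probe sets of 1 gene were averaged, giving 19935 genes. Genes were counted when 2-fold or more apart (log2 difference of 1) where the higher value reached 93.6. Named are the 9 S1P genes, the sort markers, up to 4 genes of each related list and up to 3 of each marker list with the largest absolute difference. Genes below the background guide on both arrays and genes that overlap an S1P gene are named outside that rule, after their values were seen. So are Sgpp1, Sgpp2, Sptlc1, Kdsr, Degs1, Cers2, Cers4, Cers5, Asah2, Itgb3 and Ocstamp. A planned search for the genes nearest in level is not reported, because it sets levels of different probe sets against each other. The S1P genes, lists and settings were chosen with earlier results of these data known, and the sequence strings after the values were seen. The counting code was run on simulated data with planted differences larger than the 2-fold threshold and with assumed noise. That run checks the code and gives no error for the values of these arrays. Promoter sequences and chromosomes are from RefSeq (GRCm38.p6).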

Additional observations from a re-analysis of the deposited data

How the results depend on the processing

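The differences of the 9 S1P genes changed by at most 0.04 when each array was centred on its own median or both were quantile normalized, and the median of all genes shifted by -0.03 and -0.02. Each S1P gene rests on 1 probe set, so the rule for joining probe sets could not change it. For genes with 2 probe sets, the gap between their differences had a median of 0.19 and a 90th percentile of 0.67. The median is the size above which an altered value is given here. With 1.5-fold in place of 2-fold, 2 S1P genes were higher in RANKhigh c-Fmslow cells, Sphk1 joining S1pr1, and 1168 of all genes were higher there and 1371 lower, because the threshold was smaller. Restricting lists to genes above the receptor guide gave a median of 0.80 for the phosphatases, exporter and carrier and -0.77 for ceramide and sphingosine synthesis. Restricting them to genes above the median of all values, an alternative chosen after seeing the data, gave 0.98, -0.77 and, for lysophosphatidic acid receptors, -0.50. These filters left fewer genes in each list. The other 118 of 126 alternative values lay within 0.19 (differences and medians) or within 1.5 times (counts of genes) of the reported value, and none reversed a difference of 2-fold or more. A filter or a fold threshold gives no new value for the difference of a single gene. No paired analysis was possible because each group has 1 array. Without replicates, the error of every difference is unknown.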
